A study of Mus musculus with 6 samples.

Results

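Retinal progenitor genes were examined in RNA-seq libraries of the mouse retina at embryonic day 14.5, when progenitors still divide and the first neurons are already being produced. The set holds 10 genes chosen by name: Pax6, Rax, Sox2, Lhx2, Six3, Six6, Nr2e1, Fgf15, Sfrp2 and Hes1. All 10 were found among the 23441 genes of the count table. Of these, 8 encode transcription factors, while Fgf15 and Sfrp2 encode secreted proteins, so the set is called progenitor genes here. The 3 control libraries came from mice with genotype Ronin flox/flox. The 3 conditional knockout (CKO) libraries came from Ronin flox/flox mice that also carried Chx10-Cre::GFP +/tg. Ronin is the protein of Thap11, a zinc finger factor of the THAP family. The floxed alleles were shared by both groups, whereas the Cre transgene was carried by the CKO mice only. The strain background was listed for both groups as C57/B6, SJL/B6, 129/Sv and FVB. The Cre transgene is named for a promoter active in retinal progenitors, and other cells of the retina need not have lost Thap11 directly. The sources used here do not say whether replicates were separate animals, litters or pools. The p-values therefore describe only how these libraries varied, and some of that variation may be technical.

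Retinal progenitors are held in their state by a network of homeodomain, SOX and nuclear receptor factors that first specifies the eye field in the anterior neural plate and then keeps the cells of the optic cup dividing and able to form all retinal cell classes. Pax6, Rax, Six3, Six6 and Lhx2 belong to the eye field group. Hes1 is an effector of Notch signalling that represses neuronal differentiation genes, and Fgf15 and Sfrp2 are secreted products of progenitors. Some of these genes stay on in other cells: Pax6, Six3 and Sox2 are also used by amacrine cells or the lens, and Pax6 by ganglion cells. In whole retina, fewer cells of a type and less RNA per cell cannot be told apart.

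The libraries held between 23721052 and 28504391 counted reads. Levels are given as CPM, counts per 1000000 reads of the library size after TMM scaling. Thap11 stood between 68.3 and 82.0 CPM in the controls and between 6.38 and 11.2 CPM in the CKO. The progenitor genes together took 0.389% to 0.518% of a library's reads. Control replicate 2 stood apart: its Pearson correlations with the other libraries, over log2 CPM of all genes tested, were 0.954 to 0.973, against 0.975 to 0.992 among the other libraries. Because several progenitor genes deviate in that library, the genotype difference of each progenitor gene is given with and without it. Summed CPM of 19 lens markers reached 11209, 66.8 and 837 in CKO replicates 1 to 3, against 13.1 to 21.7 among controls.

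None of the 10 progenitor genes passed the test for a difference between genotypes. In edgeR's quasi-likelihood test with Benjamini-Hochberg adjustment, 0 of 10 passed an adjusted p of 0.05, 0 had an unadjusted p under 0.05, and the smallest adjusted p was 0.940. Over all 14609 genes tested, 0.897% passed (28 or 0.192% higher and 103 or 0.705% lower in the CKO) and 6.58% had an unadjusted p under 0.05. Of the 1920 tested genes with mean CPM in the range of the progenitor genes, 1 passed (0.0521%). At these shares, 0 of 10 does not set the progenitor genes apart from other tested genes. DESeq2's Wald test and limma-voom likewise called 0 of the 10. The median log2 fold change of CKO against control was 0.03 for the progenitor genes, with 6 positive and 4 negative values, and -0.03 for all genes tested. The 95% intervals of the fold change lay within 2-fold in either direction for 9 of the 10 genes and within 1.5-fold for 7. Without control replicate 2, 0 of 10 passed against 1.48% of all genes, and all 10 intervals lay within 2-fold and 9 within 1.3-fold. That library was left out because of the values of these same genes, so the narrower intervals depend on that choice. Reads of each progenitor gene numbered between 2984 and 39474 per library, so counting error was at most 1.83% of a value.

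**Figure D1:**
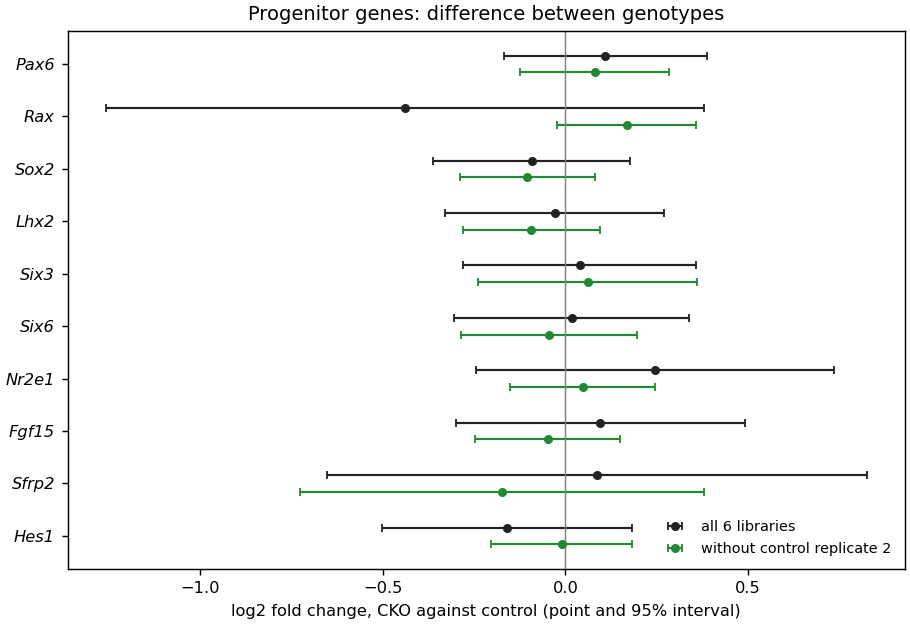
Log2 fold change of each progenitor gene, CKO against control, as point and 95% interval (horizontal axis, log2 scale), for all 6 libraries (black) and without control replicate 2 (green). Every interval includes 0, and the black interval of Rax is the only one that extends beyond 2-fold.

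The promoters of these genes were set beside those of the genes that fell. THAP11 is known to act at promoters that carry an element with the letters ACTACA, any 2 bases, TCCCAG. This element was searched on both strands of RefSeq promoter windows (GRCm38.p6, from 250 bases before to 50 bases after the gene start). A window was matched by symbol for 7 of the 10 progenitor genes (Pax6, Sox2, Lhx2, Six3, Six6, Nr2e1 and Sfrp2), and Rax, Fgf15 and Hes1 were not matched. The element was found in 0 of these 7 genes, in 271 of the 10704 tested genes with a window (2.53%), in 40 of 83 called lower in the CKO (48.2%) and in 3 of 19 called higher (15.8%). A looser form, ACTACA, any 3 bases, CCCA, which overlaps the first, was in 0 of 7, 4.12%, 78.3% and 31.6% of the same sets. The letters ACTACA alone, added after these values were seen, were also in 0 of 7, against 11.8% of tested genes and 94.0% of those called lower. Of the 12 fixed letters of the longer form, the best partial match in a progenitor gene's window met 7 to 9 (median 8), where the median of tested genes was also 8 and that of genes called lower was 11. At the shares of tested genes, 0 matches among 7 genes is not unusual, so it does not set the progenitor genes apart from tested genes. A match of letters is a description and not a binding site, and a window without a match says nothing about the factor elsewhere.

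**Figure D2:**
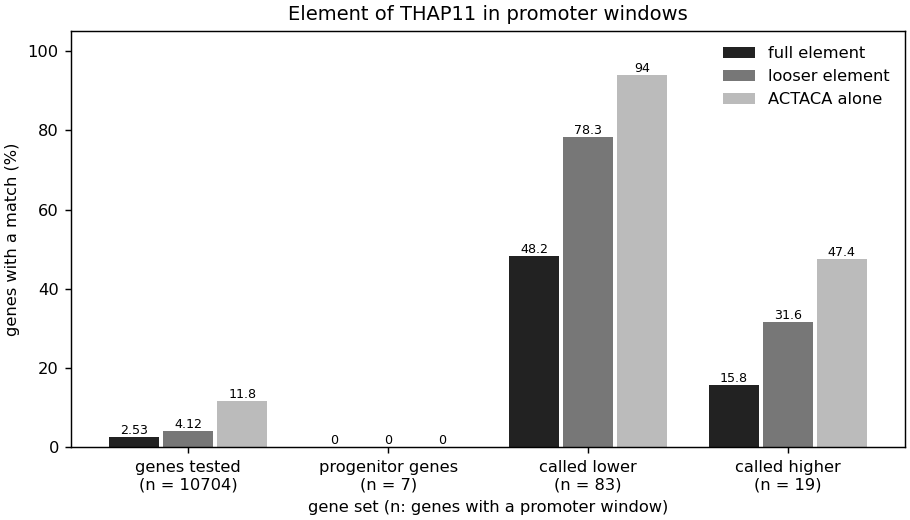
Share of genes (percent, vertical axis) whose promoter window holds the longer element (black), the looser form (dark grey) or ACTACA alone (light grey), for tested genes, the progenitor genes, and genes called lower or higher in the CKO. The 7 progenitor genes with a window are at 0 for all 3, and tested genes are at 2.53%, 4.12% and 11.8%. Genes called lower reach 48.2%, 78.3% and 94.0%.

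The 250 bases before the start are printed for Sox2, for Pax6 and for Sfrp2, which varied most among the CKO libraries. Sox2 was the only progenitor gene whose groups did not overlap. Groups did not overlap for 12.6% of all genes tested, so this does not mark Sox2 as changed. Each printed stretch is written in the direction of transcription. Capitals mark a best partial match to the longer element on either strand (the first where several tie), with 8, 8 and 7 of its 12 fixed letters met. In Sox2 the letters are met by the reverse complement of the stretch as printed.
Sox2, chr3:34649745-34649994, plus strand: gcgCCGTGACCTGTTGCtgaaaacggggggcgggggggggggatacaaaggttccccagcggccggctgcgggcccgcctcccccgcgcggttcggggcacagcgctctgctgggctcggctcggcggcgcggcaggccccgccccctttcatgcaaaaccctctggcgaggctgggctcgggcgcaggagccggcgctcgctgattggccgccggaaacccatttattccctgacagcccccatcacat
Pax6, chr2:105668646-105668895, plus strand: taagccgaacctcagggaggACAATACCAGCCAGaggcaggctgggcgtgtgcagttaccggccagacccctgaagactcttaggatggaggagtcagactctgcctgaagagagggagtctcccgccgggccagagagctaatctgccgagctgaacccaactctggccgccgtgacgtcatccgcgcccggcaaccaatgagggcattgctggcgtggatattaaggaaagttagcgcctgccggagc
Sfrp2, chr3:83766071-83766320, plus strand: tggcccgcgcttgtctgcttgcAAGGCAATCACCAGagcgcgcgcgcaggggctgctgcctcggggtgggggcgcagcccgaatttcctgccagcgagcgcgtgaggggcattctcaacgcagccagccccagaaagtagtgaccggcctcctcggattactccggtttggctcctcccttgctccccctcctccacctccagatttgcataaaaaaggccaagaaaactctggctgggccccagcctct
For contrast, stretches around a full match are printed from 3 called genes, chosen after their values were seen. Thap11 and genes of a chromosome left out by plan were set aside. Those printed fell most among the remaining genes whose match and printed flanks lie fully upstream of the start. These are Mrpl24 (a mitochondrial ribosomal protein), Bckdk (a kinase of branched-chain amino acid breakdown) and Coa3 (a cytochrome c oxidase assembly factor), and capitals mark the match.
Mrpl24, chr3:87919392-87919435, plus strand: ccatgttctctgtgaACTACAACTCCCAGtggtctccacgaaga
Bckdk, chr7:127904014-127904057, plus strand: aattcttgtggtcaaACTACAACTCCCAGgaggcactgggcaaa
Coa3, chr11:101278986-101279029, minus strand: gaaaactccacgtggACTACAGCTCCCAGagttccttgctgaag
In these 3 genes the capitals hold all 12 fixed letters, which none of the 7 progenitor gene windows did.

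Among the eye field homeodomain genes, Pax6, the paired-box factor needed for eye formation, measured 826, 776 and 874 CPM across control replicates 1 to 3, against 841, 907 and 923 CPM for CKO replicates 1 to 3. Values below follow the same order of libraries. The ranges overlapped, with CKO replicate 1 below the third control. Its fold change was 1.08 (95% interval 0.890 to 1.31, adjusted p = 0.941 with edgeR), and 1.06 (0.918 to 1.22) without control replicate 2.

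Rax, the retina and anterior neural fold homeobox gene, measured 279, 703 and 277 CPM across the control replicates, against 303, 315 and 309.8 CPM for the CKO replicates. Control replicate 2 was thus 2.53 times the mean of the other controls, while the remaining 5 libraries lay between 277 and 315 CPM. With all libraries the fold change was 0.737 (95% interval 0.418 to 1.30, edgeR adjusted p = 0.940). Without control replicate 2 the direction turned, to 1.12 (0.985 to 1.28, edgeR adjusted p = 0.580). In GENCODE M21, exons of Rax share 1604 bases with those of Raxos1, an antisense transcript on the opposite strand that was not analysed here. No source used here says whether counting kept the strand, so Rax and Raxos1 reads cannot be told apart.

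Six3 and Six6 are sine oculis homeobox genes of the same subfamily. Six3 measured 378, 435 and 476 CPM across the control replicates, against 410.4, 454 and 459 CPM for the CKO replicates, every CKO value lying inside the control range. Its fold change was 1.03 (0.823 to 1.28, edgeR adjusted p = 0.978), and 1.04 (0.848 to 1.28) without control replicate 2. Six3os1, a long noncoding RNA read from the opposite strand at this locus, averaged 694 ± 96.0 CPM in controls against 661 ± 92.3 CPM for the CKO (SD over 3 libraries each). The exons of the pair share 106 bases in GENCODE M21. Six6 measured 308, 242 and 262 CPM across the control replicates, against 281, 260.0 and 279 CPM for the CKO replicates. Its groups overlapped as well, and the fold change was 1.01 (0.810 to 1.26, edgeR adjusted p = 0.991), or 0.969 (0.820 to 1.15) without control replicate 2. Exons on the opposite strand share 192 bases with Six6 (4930447C04Rik), 168 more with Six3 (Gm28528), 761 with Fgf15 (Gm26793) and 347 with Sfrp2 (Gm26771) in the same annotation, so the limit on strand holds for these genes too.

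Lhx2, a LIM homeodomain factor required for the optic vesicle to become an optic cup, measured 234, 195 and 226 CPM across the control replicates, against 221, 211 and 210.1 CPM for the CKO replicates. The CKO values lay between control replicate 2 and the other controls. Its fold change was 0.980 (0.796 to 1.21, edgeR adjusted p = 0.986), and its log2 value was -0.03, against 0.04 when libraries were scaled by their totals alone. Without control replicate 2 the fold change was 0.937 (0.823 to 1.07).

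Sox2, a high-mobility-group factor that maintains neural progenitors, measured 211, 197 and 204 CPM across the control replicates, against 192, 192 and 189.7 CPM for the CKO replicates. All 3 CKO libraries were below all controls. Sox2 was the 1 progenitor gene of 10 whose groups did not overlap in either direction, against 12.6% of all genes tested. The difference was small: a fold change of 0.938 (0.778 to 1.13, edgeR adjusted p = 0.946), or 0.930 (0.818 to 1.06) without control replicate 2. Nr2e1, the orphan nuclear receptor Tlx that keeps neural stem cells and progenitors proliferating, measured 225, 130.2 and 214 CPM across the control replicates, against 236, 222 and 217 CPM for the CKO replicates. Control replicate 2 was the low value, at 0.593 times the mean of the other controls. The fold change was 1.19 (0.845 to 1.66, edgeR adjusted p = 0.940), and 1.03 (0.901 to 1.19) without that library.

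Hes1, the basic helix-loop-helix repressor downstream of Notch, measured 130.2, 170.1 and 132 CPM across the control replicates, against 132, 132 and 123 CPM for the CKO replicates. Here control replicate 2 was the high value, at 1.30 times the mean of the other controls, and the other 5 libraries spanned a 1.07-fold range, the narrowest of the set. The fold change was 0.896 (0.706 to 1.14, edgeR adjusted p = 0.940), and 0.993 (0.868 to 1.14) without control replicate 2.

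Of the secreted factors, Fgf15, a fibroblast growth factor made by progenitors, measured 1503, 976 and 1319 CPM across the control replicates, against 1367, 1354 and 1336 CPM for the CKO replicates. Its CKO libraries differed by little, with a coefficient of variation (CV, the SD as a percentage of the mean) of 1.14%, and lay inside the control range. The fold change was 1.07 (0.812 to 1.40, edgeR adjusted p = 0.958), and 0.967 (0.843 to 1.11) without control replicate 2. Sfrp2, a secreted Frizzled-related protein that modulates Wnt signalling, measured 1063, 407 and 610.4 CPM across the control replicates, against 800.1, 639 and 768 CPM for the CKO replicates. Its spread was wide in both groups, and control replicate 1 lay above every other library. The fold change was 1.06 (0.636 to 1.77, edgeR adjusted p = 0.980), and 0.887 (0.605 to 1.30) without control replicate 2. With 3 libraries per group, a difference of Sfrp2 anywhere inside these intervals remains possible.

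**Figure D3:**
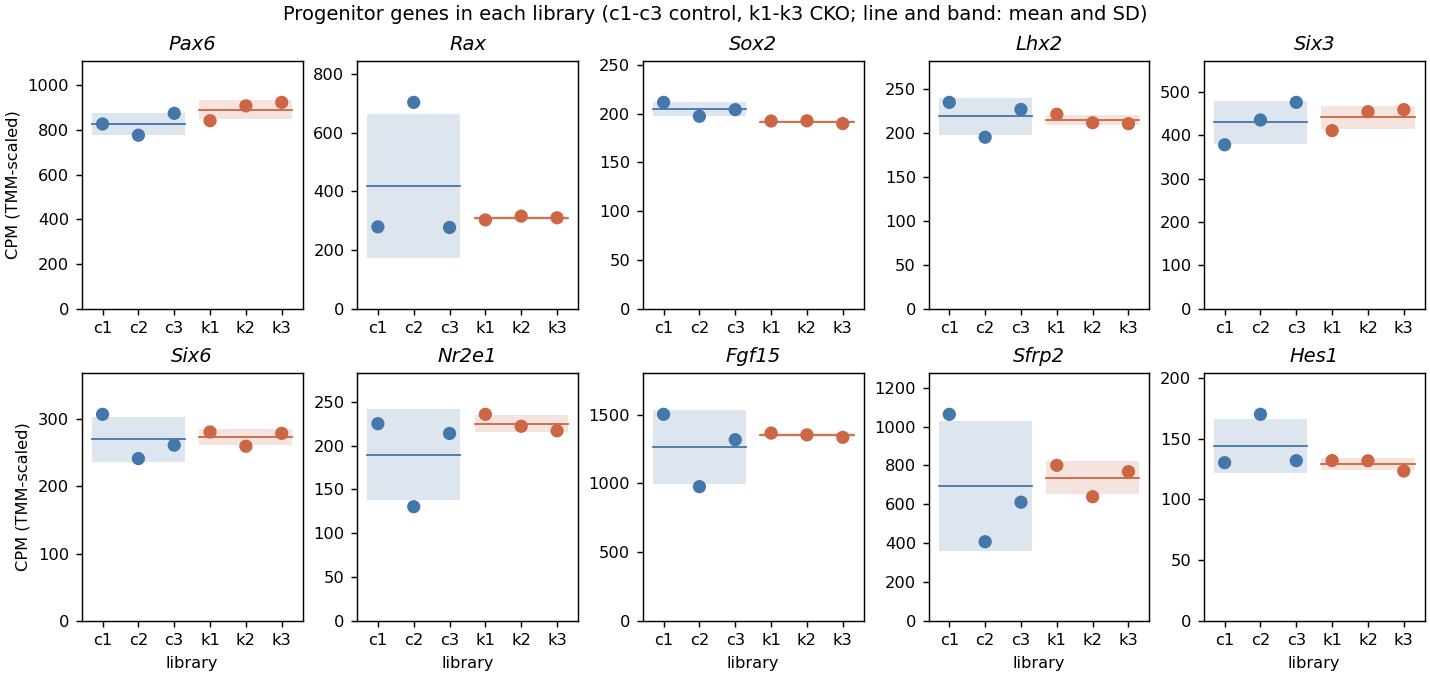
Level of each progenitor gene (vertical axis, TMM-scaled CPM from 0) in control replicates 1 to 3 (c1 to c3, blue) and CKO replicates 1 to 3 (k1 to k3, red), with lines and bands for the mean and SD of 3 libraries. In Rax the second control is at 703 CPM, far above the other 5 libraries, and in Nr2e1, Fgf15 and Sfrp2 it is the lowest.

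The progenitor genes varied more among the controls than among the CKO libraries. Their median CV was 14.1% in the controls, 3.78% in control replicates 1 and 3 alone, and 4.05% in the CKO, and all 10 had the smaller CV in the CKO. The same held for 94.7% of the 1920 tested genes with mean CPM in the range of the progenitor genes (137 to 1309), whose median CVs were 19.0% in the controls and 4.44% in the CKO. The smaller spread was thus not particular to progenitor genes. Control replicate 2 was the lowest of all libraries for 6 progenitor genes and the highest for Rax and Hes1, and it was at either end for 75.2% of those 1920 genes. It departed by 2-fold or more from the mean of the other controls in 2 of the 10, Rax upward and Sfrp2 downward, against 8.65% of the 1920 genes. A rise as large as that of Rax was seen in 2.24% of them, a fall as large as that of Sfrp2 in 2.19% and one as large as that of Nr2e1 in 7.08%.

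Over the 10 genes, the root mean square difference in log2 CPM was 0.53 to 0.71 between control replicate 2 and any other library. Between control replicates 1 and 3 it was 0.29, and among the CKO libraries 0.09 to 0.13. The closest pair of all was control replicate 3 with CKO replicate 2, at 0.08, from different genotypes. Marker lists of other cells were summed for the same libraries. In control replicate 2 the summed level of 9 periocular mesenchyme markers was 186 CPM, against 53.6 to 77.8 elsewhere, of which Col6a1 made up 110.4 CPM, while the defining genes Foxc2 and Twist1 were at 0.262 and 0 CPM. Ganglion cell markers (15 genes) summed to 5574 CPM in that library and to 4551 to 5156 in the rest. Single markers were mixed, as that library was the highest of all for 8 of the 15 and the lowest for 6. The sum of 12 amacrine and horizontal cell markers was 736 against 508 to 713, with that library highest for 3 and lowest for 1. Ciliary margin and optic stalk markers (9 genes) summed to 357 CPM there, against 395 to 552 in the rest. Their part in the levels of Rax, Sfrp2, Nr2e1 and Hes1 in that library was not tested.

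**Figure D4:**
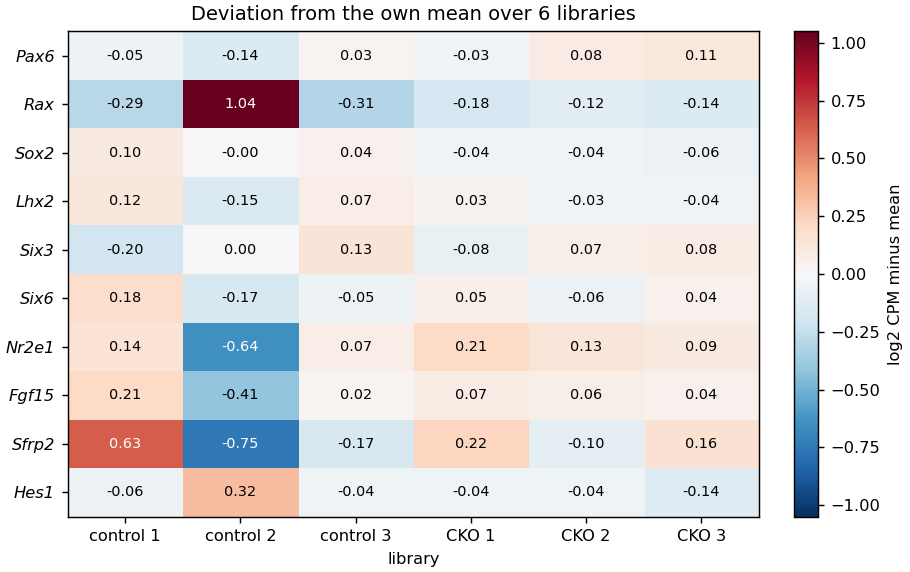
Log2 CPM of each progenitor gene (rows) in each library (columns) minus the gene's own mean over the 6 libraries, coloured from blue (lower) to red (higher). Control replicate 2 holds the extremes, 1.04 for Rax and -0.75 for Sfrp2, while the farthest CKO value from 0 is 0.22, for Sfrp2.

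**Figure D5:**
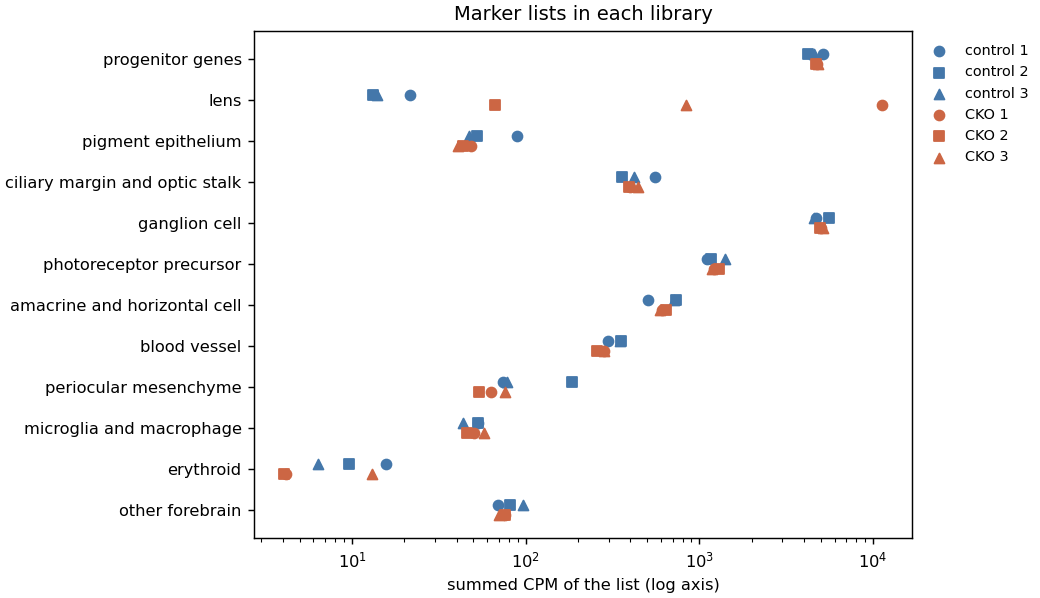
Summed CPM (horizontal log axis) of the progenitor genes and of marker lists for other cells of the eye and neighbouring tissue, per control library (blue) and CKO library (red), with the replicate shown by the marker's shape. Lens markers span 13.1 to 11209 CPM, while the progenitor genes span 4230.5 to 5157 CPM.

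The lens also uses Pax6, Six3 and Sox2. All 17 lens markers that passed the filter on low counts had positive log2 fold changes and unadjusted p under 0.05 in edgeR. None passed after adjustment in edgeR or limma-voom, while DESeq2's Wald test called 16 of the 17 higher and gave no adjusted p for 1. Cryaa, a crystallin gene of the lens, reached 3239 CPM in CKO replicate 1 against 34.6 and 175 in replicates 2 and 3. Over those same libraries Pax6 was at 841, 907 and 923 CPM, Six3 at 410.4, 454 and 459 CPM, and Sox2 at 192, 192 and 189.7 CPM. CKO replicate 1 was the lowest of the CKO libraries for Pax6 and Six3 and between the others for Sox2. The part of lens RNA in these levels was not tested.

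Levels between genes were compared per kilobase of the longest coding transcript in GENCODE M21. On that scale Fgf15 was the most abundant in the CKO, at 747 ± 8.55 CPM per kilobase (SD, n = 3), followed by Sfrp2 at 367 ± 42.7, Pax6 at 201 ± 9.82, Rax at 133 ± 2.77 and Six3 at 119.9 ± 7.25. Sox2 (93.1 ± 0.768), Hes1 (87.9 ± 3.36), Lhx2 (75.4 ± 2.09), Nr2e1 (68.4 ± 2.96) and Six6 (68.2 ± 2.92) came next. In the CKO the library ranges of neighbours in this order did not overlap, except for Nr2e1 and Six6. In the controls the order was the same but for those last genes, with overlapping ranges from Pax6 to Hes1 and from Lhx2 to Nr2e1. The order below Sfrp2 depended on the length used: with merged exons, Pax6 moved from place 3 to place 5 and Rax from 4 to 9 in the CKO, while Fgf15 and Sfrp2 stayed on top.

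Other genes of the progenitor network had no call in edgeR either. Among 12 further transcription factors, 0 passed the test (median log2 fold change 0.05). Mab21l2, needed for growth of the eye, was at 265 ± 7.61 and 281 ± 15.7 CPM in control and CKO (SD, 3 libraries each, as in the pairs that follow). Of 8 structural and cycling genes of progenitors 0 passed (median -0.26), with the intermediate filament gene Vim at 804 ± 205 and 635 ± 42.7 CPM and the cyclin gene Ccnd1 at 4089 ± 191 and 3613 ± 275 CPM. Nes, which encodes nestin and was singled out after its values were seen, measured 209.9, 775.8 and 216 CPM across the control replicates, against 159, 162 and 178 CPM for the CKO replicates. Control replicate 2 was thus 3.64 times the mean of the other controls, and the CKO libraries were below all controls, with that library or without it. Its log2 fold change was -1.27 ± 0.49 (SE, edgeR adjusted p = 0.661). Ccnd1 was the other gene of these 8 whose groups did not overlap, where 12.6% of all genes tested were so separated. Of the 16 paralogs in the list, 12 passed the filter on low counts and 0 the test (median 0.05), Hes5 being at 184 ± 34.9 and 176 ± 3.78 CPM and Sfrp1 at 121 ± 27.8 and 118 ± 30.7 CPM. All 20 cofactor genes, which encode partners such as LDB1 of LHX2 and the groucho-type corepressors of SIX3, SIX6 and HES1, were tested and 0 passed (median 0.07). Ldb1 itself was at 277 ± 47.6 and 332 ± 22.4 CPM.

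The signalling pathways around Hes1, Fgf15 and Sfrp2 were followed through fixed lists, in which edgeR called 0 genes. The median log2 fold change was 0.01 over 17 Notch pathway genes, 0.10 over 9 tested proneural genes, -0.06 over 18 FGF genes, -0.04 over 23 Wnt genes and -0.11 over 9 Hedgehog genes. Groups did not overlap for 3 Notch, 0 proneural, 4 FGF, 4 Wnt and 4 Hedgehog genes, where 12.6% of all genes tested were so separated. Unadjusted p-values under 0.05 numbered 1, 0, 2, 3 and 2 in the same order of lists, and 1, 2, 0 and 0 in the lists of further transcription factors, structural and cycling genes, paralogs and cofactors. In the Notch list the receptor gene Notch1 was at 544 ± 114 and 418 ± 24.1 CPM in control and CKO, and Rbpj, the DNA-binding partner of Notch, at 196 ± 49.6 and 198 ± 12.9 CPM. Of the proneural list, which holds targets of Hes1 repression, Neurog2 was at 214 ± 17.4 and 213 ± 9.57 CPM and Hes6 at 525 ± 341 and 329 ± 17.9 CPM. The control mean of Hes6 rests on control replicate 2, at 918 CPM, and was 328 CPM without it. Spred1, an inhibitor of FGF signalling, was at 165 ± 38.0 and 159 ± 4.52 CPM, and the pathway's responsive factor gene Etv5 at 116 ± 12.1 and 98.1 ± 10.4 CPM.

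Fgfr1, which encodes an FGF receptor and was singled out after its values were seen, came closest to a call in these lists. It measured 108, 112 and 104.6 CPM across the control replicates, against 81.0, 71.6 and 71.9 CPM for the CKO replicates, so that the groups were well apart. Its log2 fold change was -0.53 ± 0.12 (SE), with an adjusted p = 0.174 in edgeR and an adjusted p = 0.00881 in DESeq2, which called it lower. In the Wnt list Dkk3, a dickkopf-related gene, was at 1457 ± 148 and 1446 ± 88.0 CPM and Ctnnb1, encoding beta-catenin, at 1382 ± 341 and 1419 ± 57.4 CPM. In the Hedgehog list the transducer gene Smo was at 256 ± 33.0 and 242 ± 12.9 CPM and the effector gene Gli1 at 139 ± 44.6 and 137 ± 22.2 CPM. The non-overlapping Hedgehog genes, also named after their values were seen, were Shh, Ptch1 and Hhip with lower and Sufu with higher CKO values, at adjusted p = 0.590 or more in edgeR.

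Partners that overlap or adjoin a progenitor gene were read as values. Besides Six3os1, Pax6os1 was at 7.60 ± 1.36 and 6.60 ± 0.461 CPM in control and CKO, Sox2ot, whose locus contains Sox2, at 13.1 ± 0.758 and 12.4 ± 1.62 CPM, and Elp4, the neighbour of Pax6, at 76.2 ± 20.6 and 77.6 ± 3.86 CPM (SD over 3 libraries each). The mean of 4930447C04Rik, which overlaps Six6, was 19.7 ± 8.93 CPM in controls and 27.7 ± 11.2 CPM in the CKO. None of these 5 passed the test. The genes closest in pattern to the mean of the progenitor genes, by the root mean square difference of centred log2 CPM over 6 libraries among 7133 candidates, were Mcm2 (0.02), Cyth3 (0.02) and Phf10 (0.02). Mcm2 measured 291, 252 and 268 CPM across the control replicates, against 281, 278 and 282 CPM for the CKO replicates. That mean profile was nearly flat, from -0.09 in control replicate 2 to 0.08 in control replicate 1. It averages opposite deviations: in control replicate 2, Rax was at 1.04 and Hes1 at 0.32, but Sfrp2 at -0.75 and Nr2e1 at -0.64. Single progenitor genes lay 0.05 (Lhx2) to 0.51 (Rax) from it by the same measure. Mcm2, Cyth3 and Phf10 were picked as the closest candidates, so their smaller distances follow from that choice.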

How the data were processed

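Polyadenylated RNA of retinae was sequenced in 3 control and 3 CKO libraries, grouped by sample title. The authors deposited raw read counts per gene symbol. The submitters' processing notes list build mm9, HTSeq 0.5.4p3, BWA 0.7.6a-r433 and also DESeq 2.13, without roles or settings. From the table, 3 merge-conflict lines, 1 blank line and 1 repeated row with identical counts were dropped. The 10 progenitor genes and all lists were chosen with earlier results of these data known.

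In R 4.3.3, filterByExpr (minimum count 10) left 14609 genes and TMM set the scaling. The quasi-likelihood test of edgeR 4.0.16 compared the genotypes (genotype only), with Benjamini-Hochberg adjustment over all genes tested and a threshold of 0.05. On simulated counts it missed more of the genes set to a 2-fold change than it recovered. A gene without a call is thus not shown to be unchanged. SE is the absolute log2 fold change over the square root of F. Alternatives used DESeq2 1.42.0 (size factors and Wald test), library totals, limma-voom (limma 3.58.1), 2 other filters, a block for replicate number, a threshold of 0.01, and left-out libraries. Intervals and SDs cover the spread between libraries. All library pairs differed beyond sampling noise (lowest chi-square per degree of freedom 5.94).

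Named genes were all progenitor genes and Thap11, the overlapping partners, called genes of each list or else its 2 most abundant tested genes, and the 3 genes of closest pattern. Some genes that this rule names are not reported here. Promoters holding the element were to be printed, and since none of the progenitor genes had one, those shown were chosen after the values were seen. Proteins of Six3 and Six6 were planned and are not used here. Transcript lengths and overlaps came from GENCODE M21, whose build differs from that of the counts, so only lengths and names were taken. Promoter windows, with their coordinates, are RefSeq's on GRCm38.p6.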

Additional observations from a re-analysis of the deposited data

How the results depend on the processing

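The number of progenitor genes called was 0 in all 15 alternatives. Of 140 fold changes of single progenitor genes under alternatives, 0 passed the threshold and 127 kept their sign. Their median log2 fold change lay between -0.04 (control replicate 2 and CKO replicate 1 left out together) and 0.10 (library totals). The calls over all genes moved more. With all libraries 28 were higher and 103 lower, against 117 and 209 with DESeq2's Wald test, 8 and 31 at a threshold of 0.01, and 11 and 39 without control replicate 2 and CKO replicate 1 together. Leaving out single libraries gave 6 (without control replicate 3 or CKO replicate 3) to 72 (without control replicate 2) higher and 10 (without CKO replicate 3) to 147 (without control replicate 2) lower. Without CKO replicate 1 the counts were 8 and 33, without CKO replicate 2 they were 24 and 29, and without control replicate 3 they were 6 and 27. Except where fewer libraries or the stricter threshold make the difference, the cause was not tested. Of 135 pathway list counts under alternatives 134 stayed at 0, and DESeq2's Wald test called 1 FGF gene, Fgfr1. With library totals alone as the scaling, the mean CKO levels of Rax (317 CPM), Sox2 (196 CPM) and Fgf15 (1387 CPM) moved by more than their SD. With the replicate number as a block, 40 genes were higher and 113 lower, 0 progenitor genes passed, and no list call changed. Deviations from the group means of same-numbered libraries correlated at 0.34, 0.11 and -0.00773 for replicates 1 to 3. The threshold for pairing was 0.1, which replicate 3 did not reach. Differently numbered libraries correlated at 0.20 (control replicate 3 with CKO replicate 2) and 0.14 (control replicate 2 with CKO replicate 3), and negatively otherwise. The numbers were not taken to pair the samples. With 3 libraries per group, differences inside the printed intervals remain possible. The intervals are not limits of detection, since calls rest on p-values adjusted over all genes tested.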
